A study of Mus musculus with 12 samples.

Results

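The genes described here are 38 genes of DNA replication and cell division, read out by bulk RNA sequencing of mouse pituitary. They were given as a list of symbols and were found by gene ID among the 55421 gene IDs counted in each library. All 38 were found, 17 acting at entry into or during S phase and 21 in G2 and mitosis (G2/M). All 38 also passed the filter on low counts that left 22630 genes for testing. The 12 libraries form 4 groups of 3 (ctrl_vehicle, ctrl_AA14, cre_vehicle and cre_AA14), which combine 2 genotypes with 2 treatments. The control genotype is labelled Cga-ctrlAAVGpr101fl/fl and the cre genotype Cga-creAAVGpr101fl/fl, so every group, controls included, carries the floxed allele of the receptor gene Gpr101 and an adeno-associated virus. All mice were of the C57BL/6 strain and received control vehicle or AA14, named in the series title as a ligand, for 1 week. The name Cga in the genotype is that of the gene for the subunit shared by the glycoprotein hormones, which gonadotropes and thyrotropes make, and no other cell type of the pituitary is named there as a target of cre. Age and sex were not given in the sources used here. The pituitaries were dispersed to single cells and analysed by flow cytometry, and whether the sequenced cells had been sorted is not stated. Whether each of the 3 libraries of a group is a different mouse is not stated, and the p-values below then measure the spread between these libraries, which may be technical. In such bulk RNA, fewer cells of a type and less RNA per cell cannot be told apart.

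A cell that leaves G1 turns on E2F target genes, among them the Mcm genes and Cdc6, whose products load the replicative helicase onto DNA, and the genes that supply nucleotides and clamp the polymerase. Later, in G2, a second set is turned on through promoter elements called the cell cycle genes homology region (CHR) and the CCAAT box bound by NF-Y, with Foxm1 as an activator. Products of this second set condense, align and separate the chromosomes and are largely destroyed at the end of mitosis. Endocrine cells of the adult pituitary divide rarely. Most genes of the S phase set are also read at a low rate outside S phase, whereas G2/M genes are close to silent in resting cells.

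As examples of both sets, promoters of 3 G2/M genes (Mki67, Ccnb2, Cdk1) and 3 S phase genes (Mcm5, Pcna, E2f1) are printed, 5′ to 3′ on the gene's strand, from RefSeq for GRCm38.p6. Each window runs from 250 bases before to 50 bases after an annotated start. They lie at chr7:135716330-135716629 (minus strand, Mki67), chr9:70421505-70421804 (minus, Ccnb2), chr10:69352863-69353162 (minus, Cdk1), chr8:75109259-75109558 (plus, Mcm5), chr2:132253131-132253430 (minus, Pcna) and chr2:154569377-154569676 (minus, E2f1). Capitals mark matches on either strand to the CHR (TTTGAA or TTCGAA), the CCAAT box (CCAAT, read ATTGG on the other strand) and the E2F site (TTCGCGC as well as TTGGCGC and also TTCCCGC or else TTGCCGC). In Mcm5 the capitals of 2 E2F matches overlap in a single run.
Mki67: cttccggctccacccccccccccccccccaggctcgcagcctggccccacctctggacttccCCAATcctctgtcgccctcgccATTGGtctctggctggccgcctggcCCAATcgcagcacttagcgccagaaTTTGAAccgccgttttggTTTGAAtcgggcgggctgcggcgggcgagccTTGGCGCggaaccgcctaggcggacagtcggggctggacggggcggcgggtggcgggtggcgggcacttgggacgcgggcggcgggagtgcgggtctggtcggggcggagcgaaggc
Ccnb2: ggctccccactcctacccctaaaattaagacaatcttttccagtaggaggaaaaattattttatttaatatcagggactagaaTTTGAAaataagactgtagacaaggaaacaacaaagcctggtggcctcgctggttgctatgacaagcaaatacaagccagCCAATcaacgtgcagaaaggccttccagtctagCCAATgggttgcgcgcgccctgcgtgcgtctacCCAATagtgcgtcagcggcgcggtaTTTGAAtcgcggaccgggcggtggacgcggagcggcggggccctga
Cdk1: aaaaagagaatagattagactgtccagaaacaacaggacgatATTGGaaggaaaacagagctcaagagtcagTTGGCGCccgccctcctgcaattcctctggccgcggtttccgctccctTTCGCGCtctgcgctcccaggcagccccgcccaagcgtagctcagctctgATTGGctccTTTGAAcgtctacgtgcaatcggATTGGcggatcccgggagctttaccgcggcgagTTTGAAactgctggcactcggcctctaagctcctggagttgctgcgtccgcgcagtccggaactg
Mcm5: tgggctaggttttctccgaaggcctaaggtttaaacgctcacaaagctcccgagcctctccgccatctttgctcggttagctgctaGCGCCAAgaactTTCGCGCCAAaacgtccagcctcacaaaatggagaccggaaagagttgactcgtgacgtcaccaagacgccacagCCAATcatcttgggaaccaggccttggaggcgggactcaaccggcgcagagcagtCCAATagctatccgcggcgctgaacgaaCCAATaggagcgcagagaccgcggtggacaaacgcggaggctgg
Pcna: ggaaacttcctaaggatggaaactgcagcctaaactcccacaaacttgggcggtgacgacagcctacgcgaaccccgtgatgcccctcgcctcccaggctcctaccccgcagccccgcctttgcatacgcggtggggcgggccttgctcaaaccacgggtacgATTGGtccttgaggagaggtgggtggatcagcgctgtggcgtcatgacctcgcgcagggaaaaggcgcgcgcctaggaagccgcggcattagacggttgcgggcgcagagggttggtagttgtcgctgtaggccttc
E2f1: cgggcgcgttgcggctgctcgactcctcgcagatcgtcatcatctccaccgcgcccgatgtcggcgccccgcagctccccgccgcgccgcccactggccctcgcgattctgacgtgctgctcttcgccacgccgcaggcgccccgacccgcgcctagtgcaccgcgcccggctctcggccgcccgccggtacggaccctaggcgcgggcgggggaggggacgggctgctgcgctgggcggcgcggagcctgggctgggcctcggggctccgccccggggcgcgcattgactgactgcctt
The Mki67, Ccnb2 and Cdk1 windows each held 2 CHR and 3 CCAAT matches, and none of the 3 S phase windows held a CHR. E2F matches were not split in this way among the 6: there was 1 in Mki67, 2 in Cdk1 and 3 in Mcm5, and 0 in Ccnb2, Pcna and E2f1. Mcm5 also held 3 CCAAT matches and Pcna 1. The E2f1 window held none of these letters. It lies inside the span of E2f1 in the GENCODE annotation, whose 5′ end is at position 154569892, and does not reach that end. It may thus begin downstream of the start used in most cells. The lack of matches in this window says nothing of the sequence at the GENCODE start. The window is still counted with the S phase windows below.

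Over the members, CHR matches were more frequent in G2/M promoters and E2F matches in S phase promoters. Windows were found for 30 of the 38 genes, 31 windows in all since Mcm7 has a pair. A CHR was found in 12 of 16 G2/M windows (75.0%) and in 3 of 15 S phase windows (20.0%), against 19.2% of all 32851 windows in the table. An E2F match showed the reverse order, with 3 of 16 G2/M windows (18.8%), 9 of 15 S phase windows (60%) and 9.57% of all windows. The CCAAT box was common in both sets, in 14 of 16 (87.5%) and 10 of 15 (66.7%), against 37.4% of all windows. Each of the 12 G2/M windows with a CHR also held a CCAAT box, and so did each of the 3 S phase windows with a CHR. The pair was thus found in 75.0% of G2/M windows and 20.0% of S phase windows, against 7.53% of all windows. The G2/M genes with no CHR in the window were Ccnb1, Birc5, Cenpe and Nusap1. These are matches to letters, not measured binding.

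**Figure D1:**
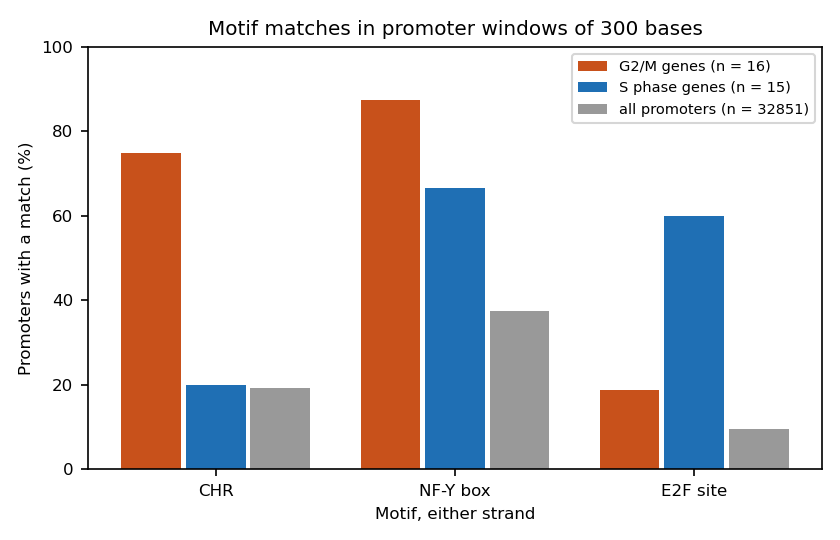
Share of promoter windows of 300 bases (y axis, percent) with at least 1 match on either strand to the CHR, the NF-Y (CCAAT) box or the E2F site, for 16 windows of G2/M genes, 15 of S phase genes and all 32851 windows. The CHR stands at 75.0% in G2/M windows and 20.0% in S phase windows, and the E2F site at 18.8% and 60%.

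Library totals lay between 48693682 and 73388221 counts. The 7 pituitary hormone genes were present in every library, with a summed level of 168500 to 319500 CPM (a gene's counts scaled to a common library total, with TMM factors). Gpr101, the targeted gene, had CPM values of 1.65, 1.22 and 16.1 (ctrl_vehicle), 3.30, 2.20 and 6.60 (ctrl_AA14), 2.43, 4.30 and 1.29 (cre_vehicle) and 2.57, 2.43 and 0.901 (cre_AA14), so its ranges in cre and control libraries overlapped. A set of 5 libraries stood apart from the other 7: Malat1, a long RNA that stays in the nucleus, was at 1105 to 1560 CPM in all 3 ctrl_AA14 libraries, cre_vehicle 1 and cre_AA14 2, and at 199 to 549 CPM elsewhere. Oligodendrocyte markers were high in 3 libraries (ctrl_vehicle 3, ctrl_AA14 1 and cre_vehicle 2), and immediate-early genes in cre_AA14 1. Some results below are also given without these libraries or with the Malat1 state in the model.

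The 38 genes together took 0.0252% to 0.0305% of a library's counts. Per kilobase of exon sequence, which allows genes to be ranked, the S phase genes filled the first 8 places. Pcna, the sliding clamp of the polymerases, led with a mean of 27.9 CPM per kilobase, and its lowest library (21.9) was above the highest library of any other member (10.1, Mcm7). Mcm7 (8.05), Mcm4 (5.42), Rrm1 (3.19) and Mcm6 (3.13) followed. Pcna stood clear of the rest, but Mcm7 and Mcm4 overlapped: Mcm7 ran from 5.13 to 10.1 over the libraries and Mcm4 from 4.60 to 7.14. Bub1b, a kinase-like protein of the spindle checkpoint, was the highest G2/M gene at 1.56 CPM per kilobase, in ninth place. Mki67 stood at 0.50, Top2a at 0.413, Cdk1 at 0.313 and Foxm1 at 0.256, and Bub1 was lowest at 0.0766. The sets overlapped in the lower places: the S phase genes Cdt1 (0.434), Rrm2 (0.274) and Cdc6 (0.120, place 35) stood below Mki67.

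**Figure D2:**
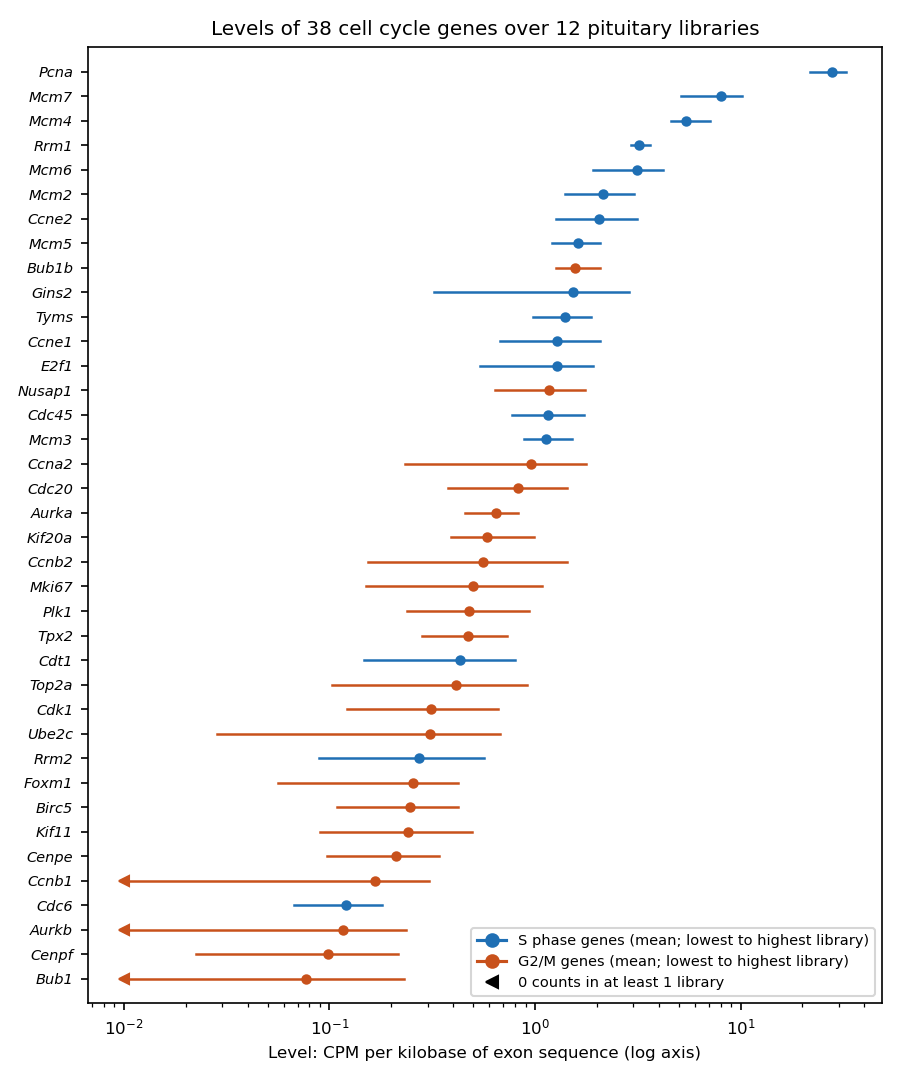
Level of each of the 38 genes in CPM per kilobase of exon sequence (x axis, log scale). Points are means over 12 libraries, lines run from the lowest to the highest library, and triangles mark genes with 0 counts in at least 1 library. S phase genes, led by Pcna at 27.9, fill the first 8 places, and Bub1 is lowest at 0.0766. The sets overlap lower down, with the S phase gene Cdc6 at 0.120.

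The low G2/M genes were near the limit of detection. Bub1 had 0 counts in ctrl_vehicle 3, cre_vehicle 1 and cre_AA14 2, Aurkb in cre_AA14 1 and cre_AA14 3, and Ccnb1 in cre_AA14 2. A count of 0 allows up to 3 counts, that is 0.0412 to 0.0607 CPM in these libraries, for counting error only. The summed level of the S phase genes ran from 205 to 252 CPM and that of the G2/M genes from 32.1 to 75.7 CPM. The relative spread between libraries also differed between members. Rrm1, the large subunit of ribonucleotide reductase, had a coefficient of variation of 7.31% over the libraries and Pcna 11.7%, against 53.8% for Mki67, 54.3% for Top2a and 102% for Bub1. The sets overlapped in this measure: the S phase genes Rrm2 and Cdt1 were at 59.2% and 48.4%, and the G2/M genes Bub1b and Aurka at 17.5% and 19.8%. Counting error takes a larger part at low counts, and the lowest count over the libraries was 0 for Bub1 and 84 for Mki67.

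Values by library are given in CPM, in the order of replicates 1, 2 and 3, starting with the genes of S phase entry. Ccne1, the cyclin that starts S phase with Cdk2, was at 2.39, 3.82 and 5.05 in ctrl_vehicle, 3.62, 2.75 and 3.46 in ctrl_AA14, 2.47, 5.51 and 3.09 in cre_vehicle, and 3.77, 1.8 and 3.36 in cre_AA14. All 4 groups overlapped. E2f1, a transcription factor that turns on S phase genes, was at 5.80, 4.89 and 5.08 in ctrl_vehicle, 2.76, 1.93 and 2.02 in ctrl_AA14, 2.69, 5.08 and 5.14 in cre_vehicle, and 6.03, 1.70 and 5.07 in cre_AA14. Its level thus fell into a low set of 5 libraries, the 5 with high Malat1, and a high set of 7, with nothing between 2.76 and 4.89. All ctrl_AA14 libraries were in the low set and all ctrl_vehicle libraries in the high set.

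The 6 Mcm genes encode subunits of 1 ring-shaped helicase, yet their levels did not follow 1 pattern. Mcm2 was at 16.3, 14.0 and 11.7 in ctrl_vehicle, 14.9, 14.8 and 9.74 in ctrl_AA14, 16.6, 16.2 and 17.5 in cre_vehicle, and 21.2, 10.6 and 15.1 in cre_AA14. Mcm5 was at 6.98, 5.02 and 5.89 in ctrl_vehicle, 6.67, 8.24 and 4.82 in ctrl_AA14, 7.79, 5.65 and 6.92 in cre_vehicle, and 5.76, 7.69 and 5.91 in cre_AA14. Neither gene separated any pair of groups that differ in treatment alone. Mcm6 followed E2f1: it was at 19.5, 15.5 and 17.1 in ctrl_vehicle, 10.4, 10.9 and 9.32 in ctrl_AA14, 8.90, 18.5 and 19.5 in cre_vehicle, and 15.8, 12 and 17.7 in cre_AA14. Mcm4 was at 16.9, 16.5 and 16.6 in ctrl_vehicle, 21.0, 23.4 and 22.9 in ctrl_AA14, 19.2, 19.0 and 16.7 in cre_vehicle, and 17.8, 25.6 and 17.8 in cre_AA14, with its 5 highest libraries those in which E2f1 and Mcm6 were low. Mcm7 had the same 5 libraries on top, at 39.0 to 44.8 against 22.7 to 36.1 elsewhere. About 12.6% of the exon sequence of Mcm7 is shared with other annotated genes, and whether reads were counted by strand is not stated.

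At the fork and in nucleotide supply, levels were steadier in the abundant genes. Pcna was at 70.9, 64.9 and 52.4 in ctrl_vehicle, 78.1, 68.6 and 69.1 in ctrl_AA14, 69.2, 56.4 and 58.1 in cre_vehicle, and 75.1, 73.9 and 66.0 in cre_AA14. Vehicle and AA14 libraries overlapped within each genotype. Rrm2, the subunit of ribonucleotide reductase that is made in S phase and limits its activity, was at 0.487, 0.796 and 1.44 in ctrl_vehicle, 0.953, 0.386 and 1.2 in ctrl_AA14, 0.465, 1.57 and 0.246 in cre_vehicle, and 0.827, 0.326 and 0.413 in cre_AA14. Its 4 groups overlapped, and within cre_vehicle alone it covered the whole range of the other 9 libraries. Gins2, a part of the active helicase, ran from 1.32 to 11.8 CPM, but 67.3% of its exon sequence lies over Gse1 on the other strand, so its counts may hold reads of that gene.

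Among the G2/M genes the library ctrl_AA14 3 stood out. Mki67, which coats mitotic chromosomes and marks cycling cells, was at 5.49, 7.4 and 1.95 in ctrl_vehicle, 3.61, 3.29 and 10.9 in ctrl_AA14, 2.75, 5.39 and 6.89 in cre_vehicle, and 4.18, 1.52 and 6.95 in cre_AA14. Top2a, the topoisomerase that untangles sister chromatids, was at 3.01, 5.22 and 2.69 in ctrl_vehicle, 3.30, 3.39 and 8.24 in ctrl_AA14, 0.930, 4.79 and 5.35 in cre_vehicle, and 1.76, 1.60 and 4.37 in cre_AA14. Both were highest in ctrl_AA14 3, and the other 2 ctrl_AA14 libraries lay within the range of ctrl_vehicle. Cdk1, the kinase that drives entry into mitosis, was at 1.67, 1.66 and 0.933 in ctrl_vehicle, 1.04, 1.12 and 3.25 in ctrl_AA14, 1.01, 2.25 and 1.60 in cre_vehicle, and 0.781, 0.598 and 2.63 in cre_AA14. Its partner Ccnb1 was at 0.384, 0.526 and 0.865 in ctrl_vehicle, 0.490, 1.07 and 1.26 in ctrl_AA14, 0.425, 1.28 and 0.908 in cre_vehicle, and 0.352, 0 and 0.826 in cre_AA14. Neither separated any of the groups.

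Of the other mitotic cyclins and regulators, Ccnb2 and Cdc20 had the largest log2 fold changes of the G2/M genes, upward and downward, between ctrl_AA14 and ctrl_vehicle. Ccnb2, the second B-type cyclin, was at 0.236, 0.696 and 0.549 in ctrl_vehicle, 1.29, 1.02 and 2.18 in ctrl_AA14, 0.708, 0.468 and 0.831 in cre_vehicle, and 0.276, 0.580 and 1.39 in cre_AA14. Its total of 665 counts stands beside 8226 counts of the pseudogene Ccnb2-ps, and how reads that fit both were assigned is not stated. Cdc20, which activates the anaphase-promoting complex, was at 2.07, 1.28 and 2.68 in ctrl_vehicle, 1.06, 1.16 and 0.703 in ctrl_AA14, 1.25, 1.33 and 1.71 in cre_vehicle, and 1.68, 1.60 and 1.93 in cre_AA14. Foxm1, the activator of the G2/M set, was at 1.40, 2.20 and 1.91 in ctrl_vehicle, 1.68, 0.816 and 1.86 in ctrl_AA14, 0.324, 1.67 and 1.17 in cre_vehicle, and 2.42, 0.925 and 1.31 in cre_AA14. Cdc20 was thus lowest in the library where Mki67 was highest, and Foxm1 did not separate the groups.

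**Figure D3:**
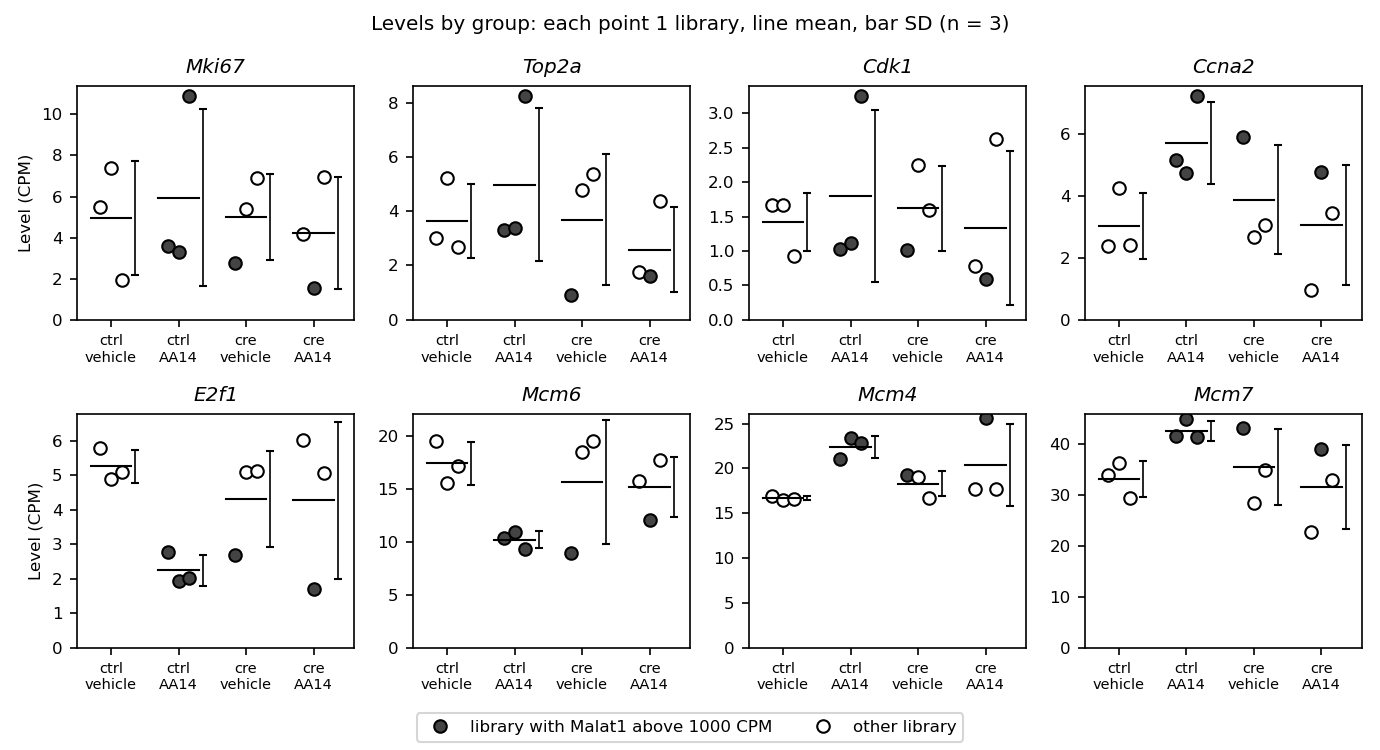
Levels in CPM (y axis) of 8 genes in the 4 groups. Each point is 1 library, lines are means, bars are SD (n = 3), and filled points are the 5 libraries with Malat1 above 1000 CPM. E2f1 and Mcm6 are lower in all filled points (E2f1 at 1.70 to 2.76 against 4.89 to 6.03 CPM), while the G2/M genes in the upper row are led by ctrl_AA14 3, with Mki67 at 10.9 CPM.

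The levels of 5 members separated the 5 libraries of high Malat1 from the other 7 without overlap. E2f1 (1.70 to 2.76 against 4.89 to 6.03 CPM) and Mcm6 (8.90 to 12 against 15.5 to 19.5 CPM) were lower in them. Mcm4 (19.2 to 25.6 against 16.5 to 19.0 CPM), Mcm7 and Ccna2, the cyclin of S phase and G2 (4.75 to 7.24 against 0.949 to 4.26 CPM), were higher. That is 5 of 38 members, against 22.4% of all genes tested (9.23% higher, 13.1% lower), so the members' share was not above that of all genes. About 12.5% of the exon sequence of Ccna2 lies over Exosc9 on the other strand, so its counts may hold reads of that gene. Without overlap, 5 of the 34 other replication genes (Rfc3, Rfc5, Prim1, Prim2 and Gmnn) were higher and Dut was lower in the 5 libraries, and of the 54 other mitosis genes Racgap1, Smc4 and Mybl2 were higher. Some markers of pituitary stem cells moved with it: Sox2 and Sox9 were lower in the 5 libraries without overlap, while S100b, Cdh26 and Aldh1a2 overlapped. None of these was at 0 in any library, and their part in the result was not tested. Since all ctrl_AA14 libraries and no ctrl_vehicle library are of the high state, the state and AA14 cannot be told apart in the control mice. In the cre mice 1 library of each treatment is of the high state.

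From library to library, pairs of G2/M genes were more alike than pairs of S phase genes. Over the 12 libraries the median Pearson correlation of log2(CPM + 0.5) was 0.36 among the 210 pairs of G2/M genes, with 36.7% of pairs above 0.5. Single G2/M pairs ran from -0.79 to 0.87, so some ran opposite to each other. Among the 136 pairs of S phase genes, which ran from -0.93 to 0.86, the median was 0.01 (14.0% above 0.5). Across both sets it was 0.04 (357 pairs, 11.5%). All genes of at least 1 CPM had a median of 0.00 and 19.0% of pairs above 0.5. Mki67 correlated with Cdk1 at r = 0.87 (Spearman 0.84), with Cenpf, a kinetochore protein, at 0.83 (0.80) and with Kif11, the motor that separates the spindle poles, at 0.82 (0.85). Without ctrl_AA14 3 and cre_AA14 2, the libraries farthest from the median of Mki67, these were 0.76, 0.70 and 0.58. Without ctrl_AA14 3 alone, the median over the G2/M pairs was 0.25, with 25.7% of pairs above 0.5. These are descriptions over libraries that share depth and state, and no p is given.

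The library ctrl_AA14 3 held the highest level of 13 of the 21 G2/M genes and of 2 of the 17 S phase genes. The lowest G2/M levels were in cre_AA14 2 for 5 genes and in cre_vehicle 1 for 4. Both are libraries of high Malat1, as is ctrl_AA14 3. The summed G2/M members ran from 32.1 to 75.7 CPM in the 5 libraries of that state and from 33.7 to 54.9 CPM in the other 7, with overlap. The summed level of the 54 other mitosis genes did separate them, at 369.8 to 489.6 CPM against 277 to 364 CPM. So did that of the 34 other replication genes, at 270.9 to 281.5 CPM against 222 to 265.1 CPM. Singly, 3 of these 54 mitosis genes and 5 of these 34 replication genes were higher without overlap, against 9.23% of all genes. Lower without overlap were 0 and 1, against 13.1%. Beside this, ctrl_AA14 3 had the highest summed hormone genes (319500 CPM) and the lowest summed macrophage markers (103 CPM, against up to 200 CPM elsewhere). Erythroid precursor markers were at 54.6 CPM there, within 36.5 to 59.6 CPM over all libraries, and lymphocyte and plasma cell markers at 21.1 CPM, within 14.3 to 47.6 CPM, with Ms4a1 and Cd3e at 0 in at least 1 library. The part of these cells in the G2/M level was not tested.

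**Figure D4:**
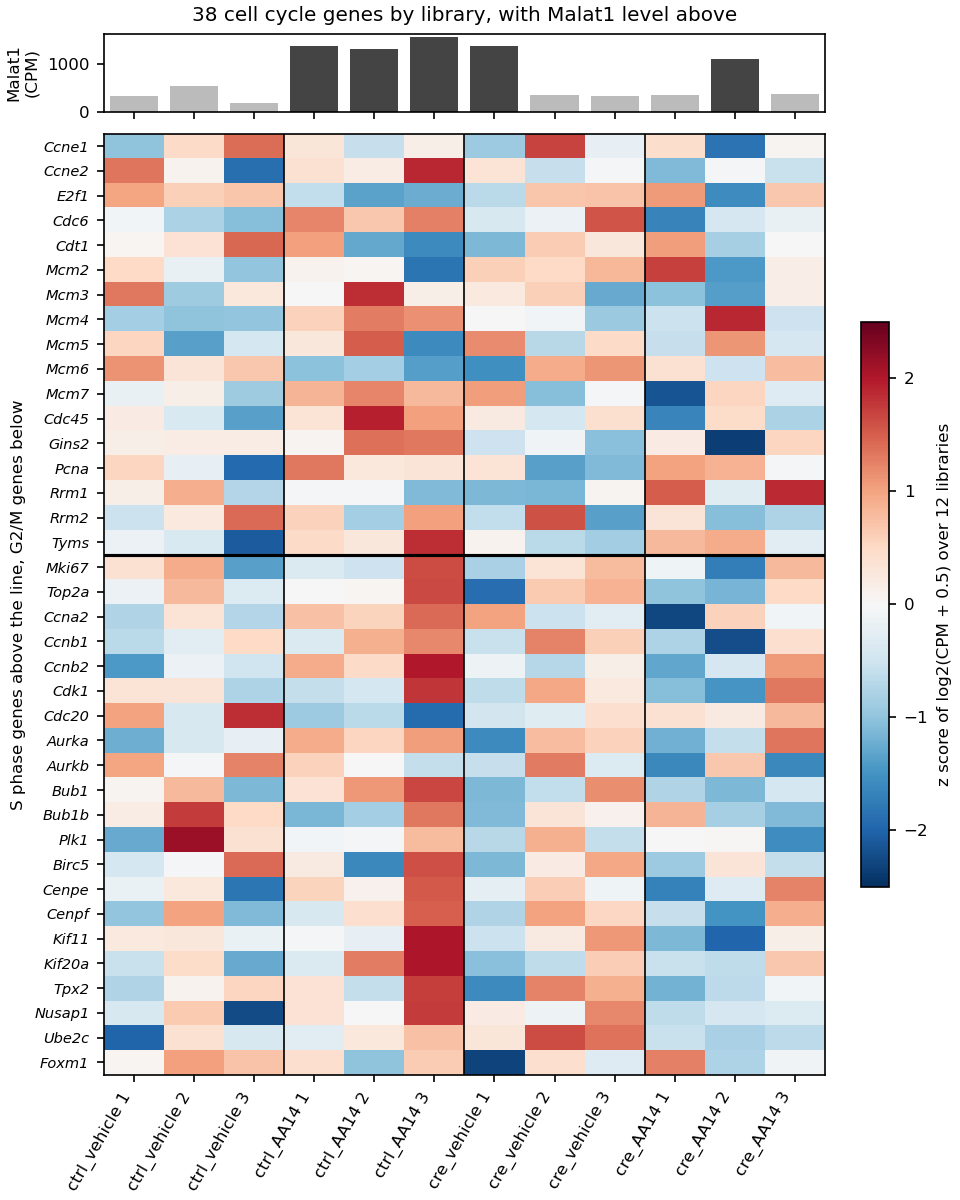
The 38 genes (rows, S phase above the line) in the 12 libraries (columns), as z scores of log2(CPM + 0.5) over the libraries, with the Malat1 level in CPM above. Many G2/M genes are highest together in ctrl_AA14 3, which has the top value of 13 of 21, while E2f1 and Mcm6 are low in the 5 libraries with dark Malat1 bars.

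Outside the list, the genes whose level most resembled the mean z score of the G2/M genes included further mitotic genes. The 10 nearest, among genes of at least 1 CPM, were Pbk (r = 0.93 over 12 libraries), Spc25 (0.86), Prc1 (0.85), Ubxn7 (0.85), Gm13414 (0.84), Ckap2 (0.83), Selenbp2 (0.83), Gm43859 (0.80), Gm37296 (0.79) and Inpp5j (0.78). Pbk is a mitotic kinase, Spc25 a kinetochore protein and Prc1 a bundler of spindle microtubules, and with Ckap2 these are the 4 genes of the 10 that were in the separate list of 54 mitosis genes. Without ctrl_AA14 3, 1 of these 10 was again among the 10 nearest, so the order of this list rests on that library. Without cre_vehicle 1 it was 5 of 10 and without cre_AA14 2 it was 6 of 10.

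The first comparison was AA14 against vehicle in mice with the control virus. E2f1, Mcm6 and Cdc20 were lower and Ccnb2 and Mcm4 higher under AA14 at an unadjusted p under 0.05, without overlap of the groups, and none of the 38 genes passed the adjusted threshold of 0.05. In edgeR 1 of all 22630 genes passed (0.00442%). Of the 38 members 5 had an unadjusted p under 0.05 (2 higher, 3 lower), against 23.8% of all genes (8.03% higher, 15.8% lower). The groups did not overlap for 8 members that were higher under AA14 (Cdc6, Mcm4, Mcm7, Cdc45, Tyms, Ccna2, Ccnb2 and Aurka) and the 3 that were lower, against 17.6% and 20.1% of all genes. Together these are 11 of 38 members, against 37.7% of all genes, so neither total, 5 or 11 members, exceeded its background share. By direction, the 8 higher members were a somewhat larger share than the 17.6% of all genes, and the 3 lower members a smaller share than 20.1%.

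E2f1 was 5.26 ± 0.48 CPM under vehicle and 2.24 ± 0.46 CPM under AA14 (SD, n = 3 each), a log2 fold change of -1.23 (SE 0.42, edgeR adjusted p = 0.143). Mcm6 was 17.4 ± 2.01 and 10.2 ± 0.807 CPM, a log2 fold change of -0.77 (SE 0.27, adjusted p = 0.146). Cdc20 had a log2 fold change of -1.04 (SE 0.34, adjusted p = 0.141). In the other direction, Ccnb2 was 0.494 ± 0.235 and 1.5 ± 0.610 CPM (log2 fold change 1.60, SE 0.61, adjusted p = 0.163), and Mcm4 was 16.7 ± 0.218 and 22.4 ± 1.23 CPM (0.43, SE 0.17, adjusted p = 0.165). Other models placed some of these past the threshold. A fit of the control groups alone called E2f1 and Mcm6, DESeq2 called E2f1 and Cdc20, and limma-voom with quality weights called E2f1, Mcm4 and Mcm6, while these models called 2266, 2299 and 3409 of all genes. With the Malat1 state as a term, chosen after seeing the data, E2f1 was at 0.07, Mcm6 at 0.00 and Mcm4 at 0.10, and Ccna2 went from 0.92 to -0.16. Ccnb2 and Cdc20 kept most of their size under this term, at 1.78 and -0.81. That term rests on the 6 cre libraries, since the state does not vary within either control group.

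As sets, the S phase genes had a median log2 fold change of 0.14 (10 of 17 above 0) and the G2/M genes of 0.42 (15 of 21 above 0), with -0.02 over all genes. The G2/M median rests on ctrl_AA14 3: without it the value was -0.03. Mki67 had a log2 fold change of 0.26 (SE 0.66, adjusted p = 0.839), with -0.51 without ctrl_AA14 3, -0.12 without ctrl_vehicle 3 and 0.67 without ctrl_vehicle 2, and 1.76 with the Malat1 state as a term. With the Malat1 state as a term the G2/M median was 0.99, and the 2 cre libraries of that state had summed G2/M levels of 33.9 and 32.1 CPM. Lymphocyte and plasma cell markers were higher under AA14 for 8 of 8 genes (median 0.92, summed 21.1 to 47.6 CPM against 14.3 to 20.6 CPM) and macrophage markers lower for 6 of 6 (median -0.56, 103 to 135 CPM against 140 to 200 CPM). Oligodendrocyte markers were lower for 8 of 8 (median -1.26, 80.2 to 783 CPM against 121 to 2523 CPM, with Mog at 0 in at least 1 library). Pituicyte markers were lower for 5 of 5 (median -0.67, 77.0 to 106 CPM against 94.9 to 128 CPM). Erythroid markers were higher for 5 of 5 (median 0.98, 3996 to 6841 CPM against 1235 to 4252 CPM). The oligodendrocyte, pituicyte and erythroid ranges overlapped between the groups. The part of these cells in the medians of the cell cycle genes was not tested. At an unadjusted p under 0.05, against 8.03% higher and 15.8% lower over all genes, the 34 other replication genes (median 0.27) gave 4 higher and 1 lower, led by Mcm10, a helicase activator (1.15, SE 0.40, adjusted p = 0.145). The 54 other mitosis genes (median 0.31) gave 4 higher and 0 lower, led by Spc24, a kinetochore protein, at 0.355 ± 0.0394 and 0.859 ± 0.0937 CPM (1.27, SE 0.40, adjusted p = 0.141). None of either list passed the adjusted threshold in edgeR over all 12 libraries, while DESeq2 called Mcm10 and Spc24 and limma-voom called Spc24. With the Malat1 state as a term Mcm10 was at 0.85 and Spc24 at 1.75.

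The second comparison was AA14 against vehicle in mice with the cre virus. Ube2c, the ubiquitin-conjugating enzyme of the anaphase-promoting complex, was the 1 member of 38 at an unadjusted p under 0.05, against 2.29% of all genes (1.2% higher, 1.09% lower). Its cre_vehicle libraries were at 0.870, 1.75 and 1.54 CPM and its cre_AA14 libraries at 0.490, 0.399 and 0.451 CPM, without overlap, a log2 fold change of -1.63 (SE 0.67, edgeR adjusted p = 1.00). In the control libraries it ran from 0.0738 to 1.11 CPM, and 22.8% of its exon sequence lies over Tnnc2 on the other strand. No gene passed the adjusted threshold in edgeR (0.0%), with 519 genes at an unadjusted p under 0.05, and DESeq2 and limma-voom called 14 and 0 genes, with 0 members in either. Nusap1, a spindle protein, was the other member whose groups did not overlap, lower under AA14, and no member was higher without overlap, against 2.54% and 3.32% of all genes (5.86% in either direction).

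The other members of smallest p in this comparison were Kif11, with a log2 fold change of -0.72 (SE 0.45, adjusted p = 1.00), and, higher, Pcna (0.23, SE 0.15) and Rrm1 (0.18, SE 0.12), each with the same adjusted p. Kif11 was -0.45 without cre_AA14 2, -0.46 without cre_vehicle 3 and -1.18 without cre_AA14 3. Mki67 was at -0.25 (SE 0.66), with 0.14 without cre_AA14 2, 0.05 without cre_vehicle 3 and -0.82 without cre_AA14 3, and E2f1 and Mcm6 were at -0.01 (SE 0.42) and -0.04 (SE 0.27). The 95% interval for E2f1, from its SE and the degrees of freedom of the test, ran from -0.93 to 0.90, and changes within it are compatible with these data. It is not a limit of detection. In the control mice E2f1 was at -1.23 with the same SE and did not pass the adjusted threshold in edgeR over all 12 libraries. Medians were -0.07 for the S phase genes and -0.29 for the G2/M genes, with -0.58 for the latter without cre_AA14 3 and 0.10 for the former without cre_vehicle 2. Of the G2/M genes, 17 of 21 were below 0. The leading genes of the other lists were Tk1, thymidine kinase (-1.13, SE 0.49), and Kif18a, a kinesin of chromosome alignment (-0.77, SE 0.32), and neither list had a gene past the threshold.

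**Figure D5:**
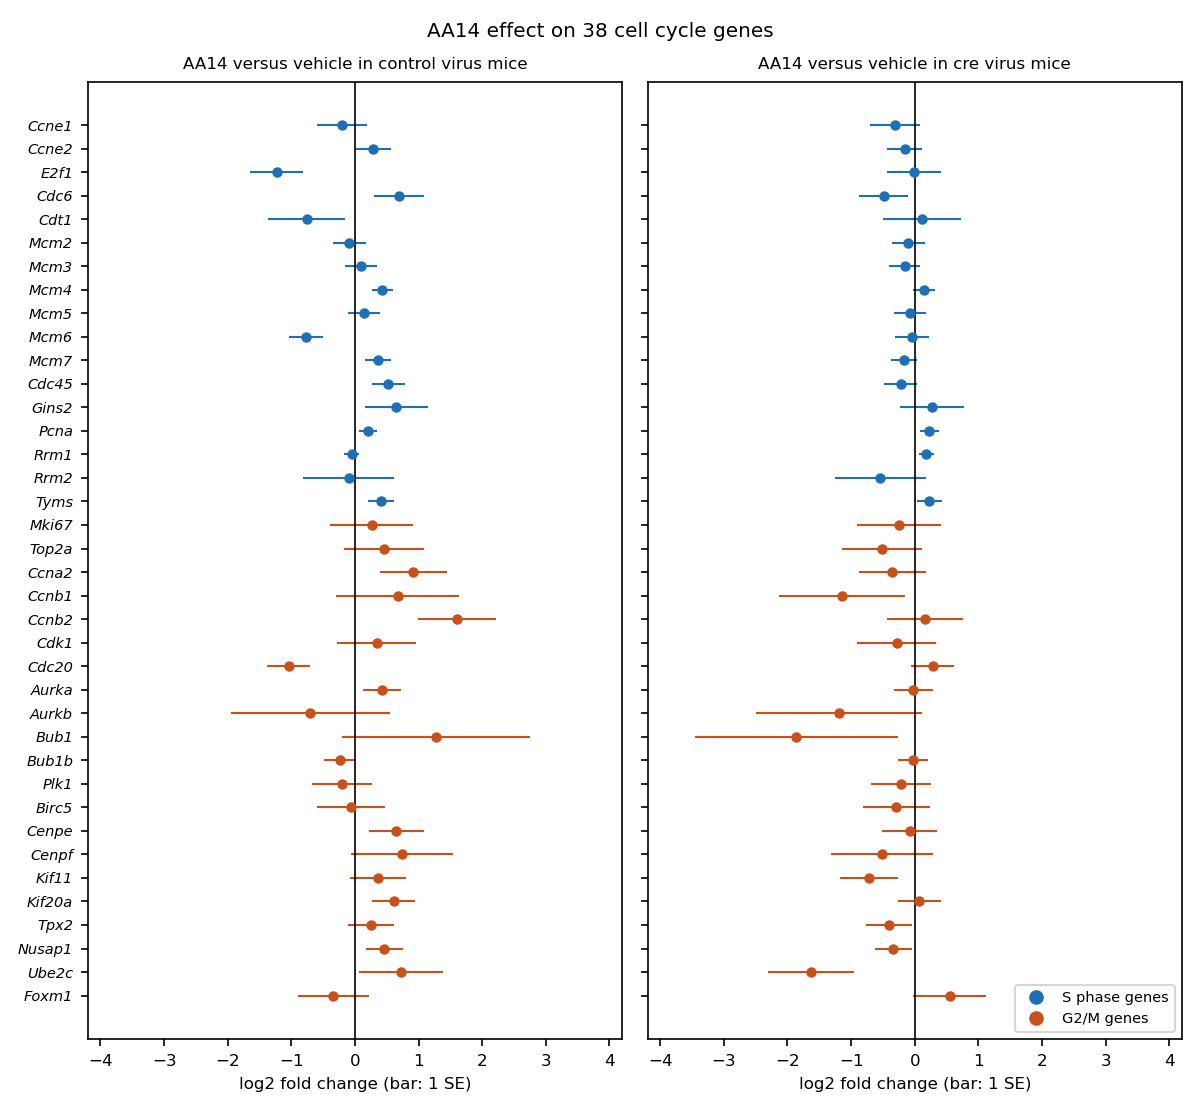
Log2 fold changes of the 38 genes (x axis) under AA14 against vehicle in control virus mice (left) and cre virus mice (right), from the edgeR fit, with bars of 1 SE. No gene passed the adjusted threshold, and the G2/M genes center above 0 on the left (median 0.42, or -0.03 without ctrl_AA14 3) and below 0 on the right (median -0.29).

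Whether AA14 acted differently in both genotypes was tested as the difference between the effects (cre minus control), which uses all 12 libraries. No member passed, and 1 gene of all tested did (0.00442%). Of the 38 members 2 had an unadjusted p under 0.05, against 7.03% of all genes (4.86% higher, 2.17% lower): Cdc20, with a difference in log2 fold change of 1.32 (SE 0.48, edgeR adjusted p = 0.631), and Ube2c, with -2.36 (SE 0.94, adjusted p = 0.631). E2f1 differed by 1.22 (SE 0.59) and Cdc6, the helicase loader, by -1.18 (SE 0.55), both with an adjusted p of 0.631. With the Malat1 state as a term E2f1 was at -0.20 and Cdc20 at 1.10. For Mki67 the difference was -0.51 (SE 0.93), with a 95% interval from -2.55 to 1.52. The median was -0.21 over the S phase genes and -0.65 over the G2/M genes, with 18 of 21 of the latter below 0, against 0.03 over all genes. Without ctrl_AA14 3 the G2/M median was -0.43 and without cre_AA14 3 it was -1.07. DESeq2 called 26 genes and limma-voom 0 for this difference, with 0 members in either. Other replication and mitosis genes were led by Tk1 (-1.78, SE 0.69, and -1.10 without ctrl_AA14 3) and Spc24 (-1.77, SE 0.56).

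The cre virus was next compared with the control virus under vehicle, without the ligand. Since the Gpr101 values of both groups overlapped, loss of Gpr101 in the cre libraries is not shown by these data. None of the 38 members was at an unadjusted p under 0.05, against 2.0% of all genes (0.932% higher, 1.06% lower), and 1 gene of all passed the adjusted threshold in edgeR (0.00442%). DESeq2 and limma-voom called 19 and 2 genes, with 0 members in either. Ube2c came nearest, with ctrl_vehicle libraries at 0.0738, 0.910 and 0.549 CPM below the cre_vehicle values given above except for 1 of them. Its log2 fold change was 1.44 (SE 0.67, edgeR adjusted p = 1.00), and 0.93 without ctrl_vehicle 1. Nusap1 was at 0.35 (SE 0.29), Cdc20 at -0.49 (SE 0.34) and Foxm1 at -0.79 (SE 0.57), all with overlapping groups. Foxm1 was at -0.37 without cre_vehicle 1 and -1.29 without cre_vehicle 2, and without ctrl_vehicle 3 Nusap1 was at 0.11 and Cdc20 at -0.23. Nusap1 was also at 0.20 without cre_vehicle 3 and 0.62 without ctrl_vehicle 2. Gins2 was the 1 member whose groups did not overlap, lower in cre_vehicle, against 2.53% of all genes (2.39% higher, 4.92% in either direction). Medians were -0.03 for S phase and 0.12 for G2/M genes. Mcm10 (0.77, SE 0.40, with 0.40 without cre_vehicle 1 and 1.22 without ctrl_vehicle 2) and Spc24 (1.27, SE 0.40, adjusted p = 1.00) led the other lists, and Spc24 was higher in all 3 cre_vehicle libraries than in any ctrl_vehicle library. Its mean was 0.355 CPM in ctrl_vehicle, 0.859 CPM in ctrl_AA14 and 0.854 CPM in cre_vehicle. Its values here, under AA14 in the control mice and for the difference share the ctrl_vehicle libraries and are not independent. Those of Ube2c here, in the cre mice and for the difference share the cre_vehicle libraries in the same way.

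Under AA14, cre against control virus, E2f1 and Cdc20 were the 2 of 38 members at an unadjusted p under 0.05, both higher in cre_AA14, against 8.52% of all genes (7.08% higher, 1.44% lower). Cdc20 was 0.975 ± 0.240 CPM in ctrl_AA14 and 1.74 ± 0.175 CPM in cre_AA14 (SD, n = 3 each), a log2 fold change of 0.83 (SE 0.34, edgeR adjusted p = 0.582). E2f1 was at 0.93 (SE 0.42, adjusted p = 0.584), 0.60 without cre_AA14 1, and at -0.11 with the Malat1 state as a term. No gene of the 22630 passed in edgeR (0.0%), and DESeq2 called 34 and limma-voom 0, with 0 members in either. The groups did not overlap for 2 of 38 members higher in cre_AA14 (Mcm6 and Cdc20), against 7.3% of all genes. They also did not overlap for 6 of 38 lower in it (Ccne2, Cdc6, Mcm7, Bub1, Nusap1 and Ube2c), against 6.76% of all genes (14.1% in either direction). The share of members was thus above that of all genes for the lower direction and for both directions together, and below it for the higher direction. The median was -0.14 for S phase and -0.50 for G2/M genes (19 of 21 below 0), and -0.24 for the latter without ctrl_AA14 3 and -0.91 without cre_AA14 3. Kif11 (-0.97, SE 0.45) and Cdc45, a helicase subunit (-0.56, SE 0.26), came next. Kif11 was at -0.48 without ctrl_AA14 3, -0.41 with limma-voom and -1.64 with the Malat1 state as a term, which put Cdc45 at -0.36. Tk1 (-1.29, SE 0.50, and -0.60 without ctrl_AA14 3) and Pbk (-1.35, SE 0.52, and -0.87 without it) led the other lists. This comparison shares the ctrl_AA14 libraries with the first and the cre_AA14 libraries with the second, so the 3 are not independent.

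Upstream of these genes, the D-type cyclins and the inhibitors that set the G1 brake are known to act first. Ccnd1, a cyclin that activates Cdk4 and Cdk6, had CPM values of 144, 143 and 128 (ctrl_vehicle), 91.8, 94.3 and 92.4 (ctrl_AA14), 99.3, 132 and 158 (cre_vehicle) and 154, 96.7 and 130 (cre_AA14). It was lower in the same 5 libraries as E2f1 and Mcm6. Under AA14 in the control mice its log2 fold change was -0.58 (SE 0.19, edgeR adjusted p = 0.141), and -0.03 with the Malat1 state as a term. The fit of the control groups alone and limma-voom called Ccnd1 in that comparison, and DESeq2 did not. Among 9 genes of G1 cyclins and their kinases, 2 were higher and 1 lower at an unadjusted p under 0.05 there, against 8.03% and 15.8% of all genes, and none passed in edgeR over all 12 libraries. Ccnh, a subunit of the kinase that activates Cdk1 and Cdk2, led in the cre mice (0.28, SE 0.17), Ccnd3 between viruses under vehicle (0.81, SE 0.24) and Ccnd2 between viruses under AA14 (0.53, SE 0.21, and 0.13 with the state as a term). For the difference of the effects it was Ccnd1 (0.55, SE 0.27).

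The inhibitor Cdkn1b (p27), whose loss causes pituitary tumours in mice, had CPM values of 74.4, 134 and 90.8 (ctrl_vehicle), 104, 69.6 and 101 (ctrl_AA14), 74.5, 80.5 and 124 (cre_vehicle) and 70.3, 83.7 and 86.3 (cre_AA14), with all groups overlapping. Cdkn2c (p18), an inhibitor of Cdk4 and Cdk6, ran from 11.9 to 21.1 CPM, and Cdkn1a (p21) from 7.99 to 24.8 CPM apart from 48.8 CPM in cre_AA14 1. Cdkn1c (p57) had CPM values of 19.6, 19.6 and 19.9 (ctrl_vehicle) and 9.07, 8.41 and 9.13 (ctrl_AA14), without overlap (-1.15 on the log2 scale, SE 0.39, edgeR adjusted p = 0.141). It was called by the fit of the control groups alone, by DESeq2 and by limma-voom. The cre libraries were at 9.06, 21.8 and 27.8 (cre_vehicle) and 22.1, 9.72 and 24.0 (cre_AA14), so it too was low in the 5 libraries of high Malat1, and its change was 0.20 with that state as a term. Of the 15 inhibitors and growth arrest genes 12 were below 0 under AA14 in the control mice, as were 11520 of all 22630 genes. At an unadjusted p under 0.05 there were 1 higher and 1 lower, against 8.03% and 15.8% of all genes. In the cre mice 11 of the 15 were above 0, with 3 higher and 0 lower, against 1.2% and 1.09% of all genes. For the difference 13 were above 0. The summed level of this list was highest in cre_AA14 1, at 1615 CPM. Of 16 retinoblastoma and E2F factors, Rbl1, a relative of the retinoblastoma protein, led under AA14 in the control mice (0.40, SE 0.18, edgeR adjusted p = 0.206, and 0.16 with the state as a term). E2f7, a repressor, led in the cre mice (1.08, SE 0.56, and 0.61 without cre_AA14 1) and between viruses under vehicle (-0.99, SE 0.56). Lin54, a subunit of the complex that reads the CHR, led for the difference (-0.40, SE 0.23) and between viruses under AA14 (-0.32, SE 0.17), and none of the list passed in any comparison. Among the inhibitors and growth arrest genes Cdkn3 led between viruses under vehicle (-0.96, SE 0.54). In the comparisons with cre_AA14 the leading genes were Gadd45b in the cre mice (1.81, SE 0.76), and Gadd45g for the difference (1.96, SE 0.91) and between viruses under AA14 (1.95, SE 0.66). These rest on cre_AA14 1, where Gadd45b was at 149 CPM and Gadd45g at 113 CPM against at most 25.8 and 18.7 CPM elsewhere, and without it the values were -0.22, 0.20 and 0.19. With the Malat1 state as a term the Gadd45g values were 0.45 and 0.89. Immediate-early genes summed to 5333 CPM in that library and to at most 1304 CPM in any other, and their part in the result was not tested.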

How the data were processed

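RNA of 12 pituitary libraries was measured, 3 in each of 4 groups of genotype and treatment. Per the labels' protocols, TRIzol gave the total RNA, a NEBNext Ultra RNA kit the libraries and a NovaSeq the reads, in pairs of 150 bases, and reads were aligned with hisat2 2.0.0. The authors deposited raw counts per Ensembl gene for each library, with featureCounts 1.5.0-p3, DESeq 1.8.3 and GRCm38 named per the submitters' processing notes. Strand setting, annotation release and the treatment of reads with several matches were not given in the sources used here. Of 55421 gene IDs, 55154 matched a symbol, and the share of counts on unmatched IDs reached 0.0135%.

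Counts were fitted with edgeR 4.0.16 in R 4.3.3: filterByExpr kept 22630 genes, libraries were scaled with TMM factors, and a mean for each group was fitted over all 12 libraries with the quasi-likelihood F test and Benjamini-Hochberg adjustment (threshold 0.05). Fold changes are log2, and their SE is the fold change divided by the root of F. At totals of 48693682 to 73388221 counts the median SE was 0.26 for S phase genes, 0.53 for G2/M genes and 0.35 for all genes. Exon lengths and gene positions came from a GENCODE annotation of GRCm38. Scripts were tested on simulated data. Alternatives were other scalings and filters, the compared groups alone, a replicate block, each library left out, DESeq2 1.42.0 and limma 3.58.1 (voom with quality weights). Fits with the Malat1 state as a term or with unscaled library totals were added after seeing the data.

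The members, lists and tests were chosen with earlier results of these data known. No member passed the threshold, so the rule names, in each comparison, the 2 members of smallest p in each direction and the 1 gene of smallest p in each other list. Mki67, Mcm6, Mcm7, Ccna2 and E2f1, and members whose groups did not overlap, are also named in comparisons where the rule does not choose them, after their values were seen. The stem cell marker list is not reported in full here.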

Additional observations from a re-analysis of the deposited data

Results flagged for a closer look

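Gm47308 (ENSMUSG00000104953), annotated as a miRNA gene on chromosome 9 and not one of the cell cycle genes, was the 1 gene past the threshold for the difference between the AA14 effects. Its counts were 2, 2 and 2 in ctrl_vehicle, 305, 355 and 298 in ctrl_AA14, 205, 364 and 392 in cre_vehicle, and 432, 241 and 330 in cre_AA14. The difference (cre minus control) was -7.04 on the log2 scale (SE 0.41, edgeR adjusted p = 4.36e-05). It was named after its values were seen, and the 3 ctrl_vehicle libraries stand apart from the other 9.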

How the results depend on the processing

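Call counts depended on the model more than on scaling. For AA14 in the control mice, against 1 gene called, counts were 2 with library totals, 2 with no low-count filter, 2 without the oligodendrocyte-rich libraries, 4 with the state term, 2266 with the compared groups only, 2299 with DESeq2 and 3409 with limma-voom, with 2, 2 and 3 members in the last 3. Upper quartile factors moved the median of all genes by 0.13 and the S phase median to 0.27. With the state term the G2/M median was 0.99, and E2f1 (0.07), Cdkn1c (0.20), Ccna2 (-0.16), Mcm6 (0.00) and Mcm7 (-0.11) lost their direction. Mki67 was at -0.42 with limma-voom and 1.76 with the state term. For AA14 in the cre mice, 1 gene and an S phase median of 0.09 came without the oligodendrocyte-rich libraries, and 14 genes with DESeq2. There E2f1 was at 0.02 with upper quartile factors and 0.12 without those libraries, and Mcm6 at 0.09 without them and 0.02 with the state term. For the difference, counts were 3 without those libraries, 4 with the state term, 26 with DESeq2 and 0 with limma-voom. Its S phase median was -0.06 with limma-voom, and with the state term its G2/M median was -0.97, E2f1 -0.20 and Ccnd1 -0.00. Between viruses under vehicle, counts were 2 with RLE factors, 2 with library totals, 3 without those libraries, 3 with the state term, 19 with DESeq2 and 2 with limma-voom. Between viruses under AA14 they were 1 with the compared groups only, 2 with the state term and 34 with DESeq2, and with the state term the G2/M median was -0.85 and E2f1 -0.11. limma-voom also moved Tk1 to -0.59 in the cre mice, -0.67 for the difference and -0.66 between viruses under AA14, E2f7 to 0.55, Gadd45b to 0.44, Gadd45g to 0.70 and 0.79, and, under vehicle, Ube2c to 2.22, Cdc20 to -0.11, Mcm10 to 0.38 and Ccnd3 to 0.53. Without the oligodendrocyte-rich libraries the vehicle values were 0.22 for Nusap1, -0.16 for Cdc20, -1.24 for Foxm1 and 0.52 for Ccnd3. The cause of these shifts was not tested.

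With each library left out in turn, the AA14 comparison in control mice gave 1 to 5 genes, S phase medians of 0.03 to 0.27, G2/M medians of -0.03 to 0.59 and Mki67 values of -0.51 to 0.67. In the cre mice it gave 0 to 2 genes, S phase medians of -0.16 to 0.10, G2/M medians of -0.58 to -0.16, Mki67 of -0.82 to 0.14, E2f1 of -0.36 to 0.36, Mcm6 of -0.33 to 0.15 and Gadd45b of -0.22 to 2.26. The difference gave 1 to 3 genes and G2/M medians of -1.07 to -0.43. Between viruses there were 1 to 3 genes and S phase medians of -0.05 to 0.09 under vehicle, and 0 to 1 gene and G2/M medians of -0.91 to -0.24 under AA14. Of the 10 genes of most similar pattern, 1 to 9 were shared.

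Libraries with the same replicate number were not more alike than others. Their deviations from the group mean correlated at -0.56 to 0.36 (median -0.06, 5 of 18 pairs over 0.1). With different numbers the range was -0.50 to 0.67 (median 0.10, 18 of 36 pairs over 0.1). These deviations also carry the Malat1 and oligodendrocyte differences between libraries, so a weak pairing could be missed. With the replicate block the counts of genes called in the 5 comparisons were the same (1, 0, 1, 1 and 0), the G2/M median for AA14 in the control mice was 0.28 and Mki67 there was at -0.05. The median SE on the log2 scale was 0.53 for G2/M genes and 0.26 for S phase genes, and how much of it is counting error was not tested.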
